A study of Mus musculus with 4 samples.

Results

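The cells compared here were peritoneal macrophages in 2 of the 4 single-cell RNA libraries of the study, those whose cell barcodes end in suffix 1 and in suffix 2. A barcode was taken when it had at least 500 detected genes, at most 10% mitochondrial UMIs (unique molecular identifiers, each counting 1 captured RNA molecule), at least 2 UMIs of Adgre1, and no UMI of Cd79a, Cd3d, Cd3e or Cd3g. Adgre1 encodes F4/80, the antigen on which the cells were sorted, and the other genes encode parts of the B cell and T cell receptors. The cells were thus selected on their UMI counts of Adgre1, Cd79a and the Cd3 genes and on their mitochondrial share, which are not results. The rule kept 1531 of the 6254 barcodes of suffix 1 and 4211 of the 6765 of suffix 2, together 5742 of the 26811 barcodes in the series. It kept 4312 cells of suffix 3 and 5000 of suffix 4, whose levels are given beside the comparison.

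All mice were 24 weeks old, and each of the 4 groups gave 1 library. Control mice of strain C57BL/6 and Apoe-/- mice, which lack apolipoprotein E, ate normal chow. The other Apoe-/- mice ate, over 20 weeks, an HFD (high-fat diet) with 0.15% cholesterol and 21% fat, and 1 of those groups then received an antibody to collagen VI (anti-CVI-mAb). The antibody was injected into the peritoneum as 3 mg in 200 µL, and each other group received an equal volume of PBS. The Apoe-/- mice on the high-fat diet were returned to normal diet before the injections. Viable F4/80+ cells from peritoneal washes were sorted for 10x Genomics 3′ sequencing. No label or file header used here ties a barcode suffix to a group, so suffixes 1 and 2 were compared as libraries of unknown group. How many animals each library pooled was not stated in the sources used here. With 1 library a side there was no replicate, no test was possible, and every interval covers counting error only.

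Macrophages of the mouse peritoneum fall into a large, long-lived population that depends on the transcription factor Gata6 and carries Timd4, and a smaller, MHC class II-rich population renewed from monocytes. Macrophages carrying Lyve1, a hyaluronan receptor, together with Folr2, Cd163 and Mrc1, are known from the walls of vessels and from serous membranes. Retnla, which encodes a secreted protein, and Mrc1, which encodes the mannose receptor, are widely used markers of alternative activation by interleukin-4.

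The libraries differed in more than these genes. The mitochondrial limit removed 34.9% of the suffix 1 barcodes with enough genes, against 7.59% in suffix 2, and the lymphocyte criterion then removed 25.5% against 7.12% of the Adgre1-positive cells. The macrophages kept were shallower in suffix 1, with a median of 8225 UMIs per cell against 12506, and held 13205915 UMIs in all against 55257376. At the edge of the rule, 262 cells of suffix 1 and 478 of suffix 2 had exactly 2 Adgre1 UMIs, with medians of 5846 and 9052 UMIs, and 243 and 412 cells just outside had 1, with medians of 5423 and 7646. The X-linked RNA Xist stood at 573 CPM (counts per 1000000 UMIs) in suffix 1 and at or below 0.0447 CPM in the other 3 libraries, whereas 4 Y-linked genes together gave 0 UMIs in suffix 1, where 3 UMIs would be 0.227 CPM, and 150 CPM in suffix 2. Only the Apoe-/- mice are labelled male. The animals' sex, the study group and the handling of each library cannot be told apart here, so X- and Y-linked genes were left out. The sets of macrophages of suffixes 1 and 2 shared no barcode.

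Of 6043 genes that reached 20 CPM in either library, 480 (7.94%) were at least 2-fold higher in the macrophages of suffix 1 and 214 (3.54%) at least 2-fold lower. The median of all 6043 log2 ratios was 0.35 rather than 0, so the split between directions depended on the scaling. With TMM scaling (edgeR's trimmed mean of M-values) 5942 genes reached 20 CPM, of which 121 were at least 2-fold higher and 602 lower. After subtraction of the median, 149 and 546 of the 6043 genes were. Counts within gene lists below stand beside 7.94% and 3.54% of all genes. Those under TMM scaling stand beside 121 and 602 of 5942 genes. TMM scaling lowered every log2 ratio by the same amount. By construction, its 121 higher genes were therefore among the 480, and all 214 lower genes stayed past 2-fold. Differences of 4-fold or more were found for 38 genes (0.629%) higher in suffix 1 and 25 (0.414%) lower. In CPM without TMM scaling or centring, suffix 1 was also at least 2-fold above both suffix 3 and suffix 4 for 382 of the 480 higher genes. It was at least 2-fold below both for 98 of the 214 lower genes. Both counts are out of the 6043 genes measured. They were not repeated under another scaling, so their split between directions also depends on the scaling. The plot of gene levels in both libraries shows the 480 and 214 genes outside the dashed lines.

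**Figure D1:**
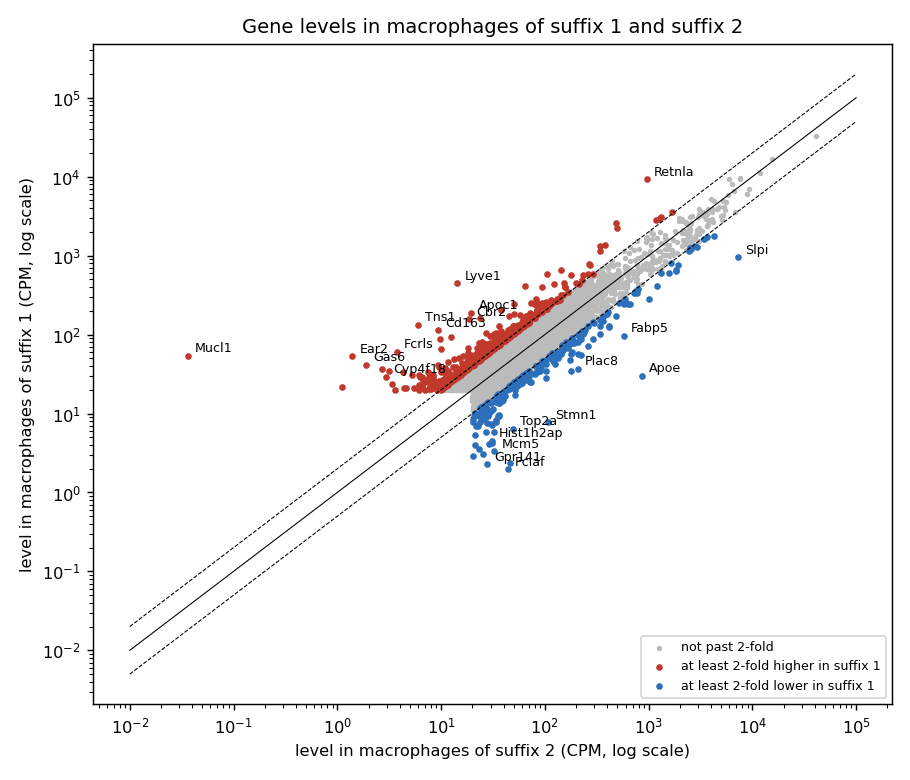
Level of each of the 6043 genes in the macrophages of suffix 2 (x axis) and of suffix 1 (y axis), in CPM on log scales, 1 point a gene; the solid line marks equal levels and the dashed lines 2-fold. The 480 genes at least 2-fold higher in suffix 1 are red and the 214 at least 2-fold lower are blue; Retnla, Lyve1, Apoe and Slpi stand far from the line at high levels.

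Genes of the Lyve1-type resident macrophage were higher in suffix 1. Of 15 genes on that list, 14 reached 20 CPM and 11 were at least 2-fold higher in suffix 1, with none lower. The list's median log2 ratio was 2.31, against 0.35 over all genes. The list, which holds Lyve1 and Mrc1, was chosen with earlier results of these data known, so its count is a description only. The same 11 genes were past 2-fold with TMM scaling and with cells thinned at random to 3000 UMIs. Lyve1 (chr7:110850607-110863239 in GRCm38) stood at 448 CPM in suffix 1, 14.3 CPM in suffix 2, 18.9 CPM in suffix 3 and 18.3 CPM in suffix 4. Suffix 1 alone was high and the other 3 libraries lay close together. The log2 ratio of suffix 1 over suffix 2 was 4.97 (95% interval 4.86 to 5.08), a 31.3-fold difference. The adjacent gene Mrvi1 (chr7:110868266-110982461), which encodes a regulator of calcium release, stood at 36.1 CPM against 2.70 CPM, a log2 ratio of 3.74.

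Retnla was the most abundant in suffix 1 of the 480 higher genes. Its level was 9261 CPM in suffix 1, 961 CPM in suffix 2, 1045 CPM in suffix 3 and 807 CPM in suffix 4. The log2 ratio over suffix 2 was 3.27 (3.25 to 3.28), and suffix 1 again stood apart from 3 libraries of similar level. Mrc1 stood at 407 CPM in suffix 1, 64.4 CPM in suffix 2, 21.2 CPM in suffix 3 and 24.7 CPM in suffix 4, so suffix 2 was itself above suffixes 3 and 4. Its log2 ratio was 2.66 (2.60 to 2.72). Cd163, the scavenger receptor for haemoglobin bound to haptoglobin, stood at 114 CPM against 9.34 CPM, with 6.40 and 5.12 CPM in suffixes 3 and 4, and its log2 ratio was 3.60 (3.46 to 3.75).

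The remaining genes of the resident list differed by smaller or similar factors. Log2 ratios were 4.46 for Gas6, a ligand that bridges dying cells to Mertk and Axl, 3.09 for the carbonyl reductase Cbr2, 2.78 for the scavenger receptor Stab1 and 2.43 for the lectin Fcna. They were 2.20 for the transcription factor Maf, 2.09 for the folate receptor Folr2, 1.96 for the coagulation factor F13a1 and 1.59 for the growth factor Igf1. The 3 members short of 2-fold were the chemokine genes Ccl24 at 0.75 and Pf4 at -0.33, and Timd4, a receptor for phosphatidylserine, at -0.40. Suffix 1 therefore carried the Lyve1 and Folr2 genes at a raised level without a raised level of Timd4, which stood at 63.8 CPM in suffix 1, 84.0 CPM in suffix 2, 251 CPM in suffix 3 and 321 CPM in suffix 4.

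Upstream sequence is shown for Retnla and Cd163, whose levels differed by 9.63-fold and 12.2-fold, to set the base sequence before each gene beside its level. The letters searched were the STAT6-type palindrome, TTC and GAA spaced by 4 bases, and TGCTGA, the core of sites bound by MAF proteins, both on either strand and with no overlap between them in these windows. In all promoters of autosomal genes, 5.92% hold the former and 15.7% the latter in the 250 bases before the start. Sequences are from RefSeq (GRCm38.p6), 5′ to 3′ on the gene's strand, cut where the GENCODE gene model begins, with matches in capitals. The stretch printed for Retnla lies at chr16:48842359-48842550 and that for Cd163 at chr6:124304401-124304650, both on the plus strand.
Retnla: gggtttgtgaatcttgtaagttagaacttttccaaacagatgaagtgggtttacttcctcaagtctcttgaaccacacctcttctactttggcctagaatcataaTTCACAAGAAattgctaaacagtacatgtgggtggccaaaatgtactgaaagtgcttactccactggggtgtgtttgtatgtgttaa
Cd163: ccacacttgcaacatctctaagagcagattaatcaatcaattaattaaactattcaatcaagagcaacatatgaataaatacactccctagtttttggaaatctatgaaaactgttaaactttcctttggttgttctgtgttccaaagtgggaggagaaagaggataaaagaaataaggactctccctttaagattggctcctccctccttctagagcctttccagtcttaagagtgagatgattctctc
The Retnla sequence as printed holds 1 match of the palindrome, and its full window of 250 bases also holds 1 match of TGCTGA on the other strand, 47 bases before the start and beyond the printed part. The Cd163 window holds none of either set of letters. A match describes the letters only.

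Among the 14 named genes with the highest ratios were several outside these lists. Tns1, which encodes the adhesion protein tensin, stood at 132 CPM in suffix 1, 5.95 CPM in suffix 2, 15.3 CPM in suffix 3 and 11.5 CPM in suffix 4, a log2 ratio of 4.47 (4.30 to 4.65). Fcrls, an Fc receptor-like scavenger gene, stood at 60.0 CPM against 3.75 CPM, with 1.40 and 1.09 CPM in suffixes 3 and 4. Apoc1, which encodes an apolipoprotein, stood at 189 CPM against 19.6 CPM. Plekha6 and Slc27a1, the latter a fatty acid transporter, had log2 ratios of 3.45 and 2.95. Plekha6 stood at 34.4, 3.15, 11.5 and 11.3 CPM in suffixes 1 to 4, and Slc27a1 at 33.6, 4.34, 15.3 and 14.5 CPM. Suffix 2 was thus the lowest library for both, below suffixes 3 and 4. In the plot of levels in all 4 libraries, suffix 1 is the highest library for each of the 14.

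Not every high ratio was spread over the cells. Mucl1, a mucin-like gene, had the highest ratio, 10.23 on the log2 scale (8.69 to 13.60), but all of its 715 UMIs in suffix 1 came from 4 cells, against 2 UMIs in suffix 2, and suffix 3 reached 16.8 CPM. Ear2, a ribonuclease gene with near-identical copies among which reads could be split, stood at 53.2 CPM against 1.39 CPM. It was found in 62 cells of suffix 1, and the top 1% of cells held 70.8% of its UMIs. Cyp4f18 is also a gene of B cells. In cells with at least 2 Cd79a UMIs and no Adgre1 UMI, it stood at 355 CPM in suffix 1 and 270 CPM in suffix 2. The macrophages of suffix 1 held 28.9 CPM of Cyp4f18, against 2.95 CPM in suffix 2.

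**Figure D2:**
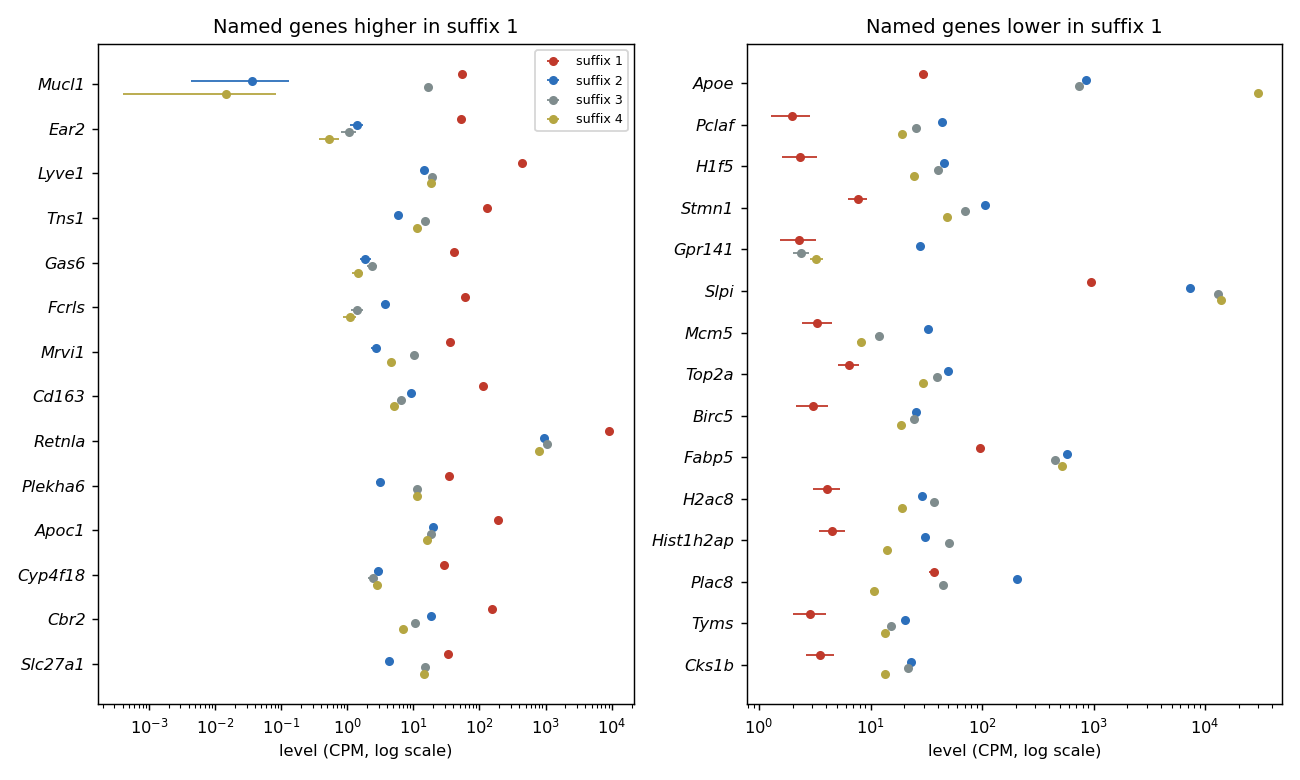
Level in CPM (log scale) of the 14 named genes highest (left) and 15 lowest (right) in suffix 1 relative to suffix 2, in the macrophages of all 4 libraries; points are levels from summed UMIs and bars 95% Poisson intervals, which cover counting error only. Lyve1 stands at 448 CPM in suffix 1 and at 14.3 to 18.9 CPM elsewhere, and Apoe at 29.8 CPM in suffix 1 and 29802 CPM in suffix 4.

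Differences per cell were examined after each cell was thinned to 3000 UMIs, which left out 85 macrophages of suffix 1 and 55 of suffix 2. Lyve1 was then found in 38.2% of 1446 cells of suffix 1 (95% Clopper-Pearson interval 35.7 to 40.8) and in 2.26% of 4156 cells of suffix 2 (1.83 to 2.76). Before thinning the shares were 45.5% and 4.01%. Cd79a-positive cells without an Adgre1 UMI were taken as a gauge of free RNA, though merged cells were not tested for. Leaving out cells with an Adgre1 UMI may make this gauge low. After thinning, 3.11% of the Cd79a-positive cells of suffix 1 held a Lyve1 UMI and 0 of 539 in suffix 2, an interval up to 0.682%. The median depth of those cells was 9115 UMIs in suffix 1 and 7039 in suffix 2. The intervals of macrophages and Cd79a-positive cells of suffix 1 did not overlap.

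Retnla was found in 91.5% of suffix 1 macrophages after thinning (89.9 to 92.9) and in 24.4% of suffix 2 (23.1 to 25.8); before thinning it was in 98.1% and 43.3%. The median cell of suffix 1 held 13 Retnla UMIs of its 3000 and the median cell of suffix 2 held 0. By the same gauge Retnla was plentiful in suffix 1, where 51.8% of the Cd79a-positive cells held a UMI, against 7.24% in suffix 2. The level in those cells was 266 CPM in suffix 1, compared with 9261 CPM in its macrophages. Mrc1 was found in 62.5% against 16.4% of macrophages after thinning, 81.7% against 37.8% before it, and 12.6% against 1.86% of Cd79a-positive cells. Tns1 was found in 29.4% against 1.52% and Cbr2 in 27.5% against 4.33% of thinned macrophages. Timd4 was found in 11.8% of thinned macrophages in both libraries.

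**Figure D3:**
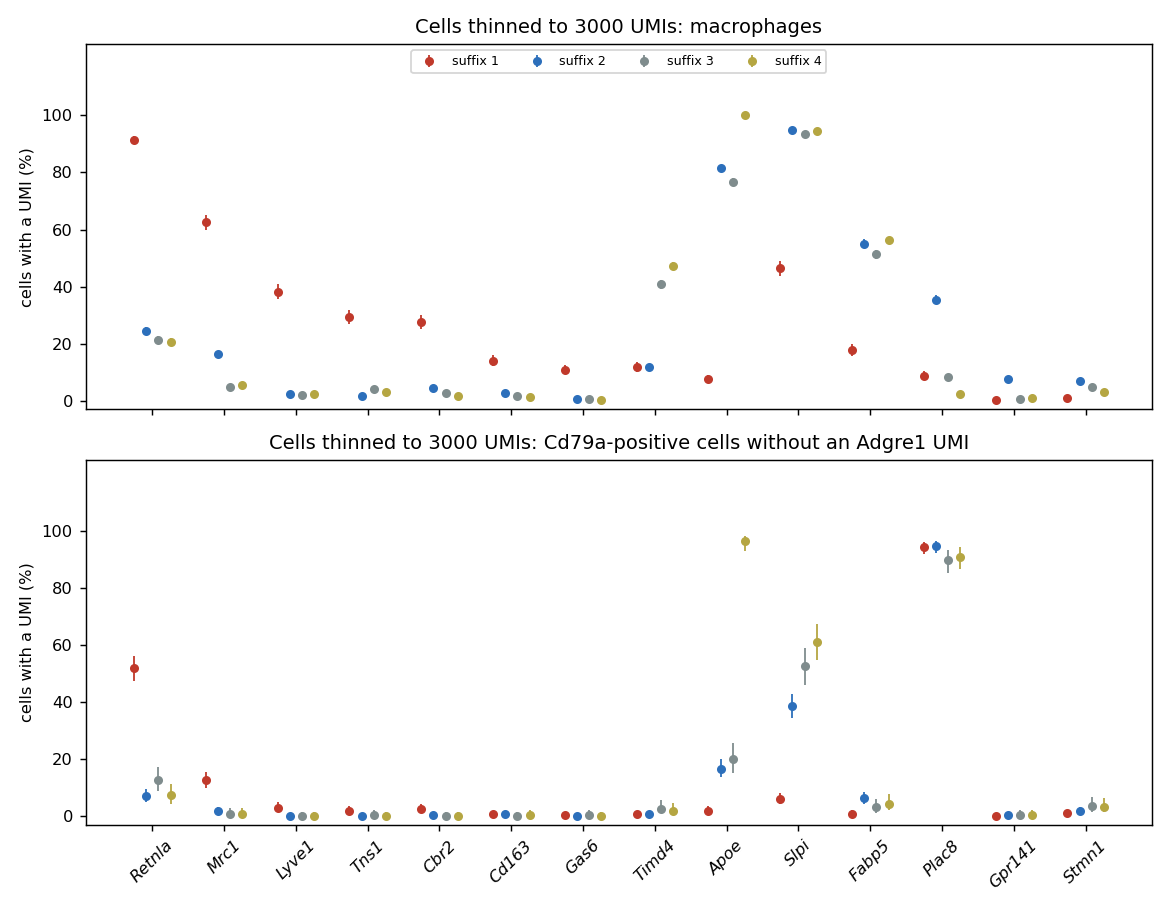
Share of cells (%) with a UMI of each gene after thinning to 3000 UMIs, in macrophages (top) and in Cd79a-positive cells without an Adgre1 UMI (bottom), for the 4 libraries; bars are 95% Clopper-Pearson intervals. Retnla, Mrc1 and Lyve1 are found in 91.5%, 62.5% and 38.2% of suffix 1 macrophages, above the other libraries, while Apoe and Slpi are found in 7.68% and 46.5% of them, below the other libraries.

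Within the macrophages of suffix 1, the share of cells holding Folr2 or Mrc1 was higher where a Lyve1 UMI was present. After thinning, Folr2 was found in 73.6% of 553 Lyve1-positive cells (69.7 to 77.2) and in 41.1% of 893 cells without Lyve1 (37.8 to 44.4). Mrc1 was found in 76.7% against 53.8%. Timd4 went the other way, in 7.78% of Lyve1-positive cells against 14.3% of the rest, as did Ccr2, the receptor that draws monocytes from blood, in 8.32% against 19.0%. Retnla was common in both, at 96.2% and 88.6%. In suffix 2 only 94 thinned cells held Lyve1, and Folr2 was found in 62.8% of them (52.2 to 72.5) against 17.1% of the other cells. Cells of 1 library are not replicates, so these shares describe the libraries.

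Apoe had the largest difference in the other direction. Apoe (chr7:19696109-19699188) encodes apolipoprotein E, which carries cholesterol from macrophages. It stood at 29.8 CPM in suffix 1, 863 CPM in suffix 2, 737 CPM in suffix 3 and 29802 CPM in suffix 4. Suffix 1 was the lowest, suffixes 2 and 3 were alike, and suffix 4 was far above all of them. The log2 ratio of suffix 1 over suffix 2 was -4.85 (-5.001 to -4.711), and after thinning Apoe was found in 7.68% against 81.6% of macrophages. In Cd79a-positive cells of suffixes 1 and 2 it was found in 2.01% and 16.7%. The sources used here do not say which part of the gene the Apoe-/- allele lacks, so 3′ counts were not used to name the group of a library.

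Genes beside Apoe differed in either direction. Within 100 kb, Apoc1 (chr7:19689481-19692660) and Apoc4 (chr7:19678083-19681479), both apolipoprotein genes on the same strand, had log2 ratios of 3.27 and 2.47. Apoc4 stood at 580 CPM in suffix 1, 105 CPM in suffix 2, 35.3 CPM in suffix 3 and 29.0 CPM in suffix 4. The mitochondrial import gene Tomm40 and the adhesion gene Bcam were lower in suffix 1, as Apoe was, by less than 2-fold, at -0.70 and -0.66. Clptm1 stood at 0.11. Of the 14 measured genes of cholesterol efflux and LXR targets, Apoc1, Apoc4 and the exporter Abca1 (1.13) were at least 2-fold higher, and Apoe and the desaturase Scd2 (-2.11) at least 2-fold lower. With TMM scaling Abca1 stood at 0.77.

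After Apoe, Slpi and Fabp5 were among the 15 lower genes named by rank. Slpi, a secreted inhibitor of neutrophil proteases, stood at 951 CPM in suffix 1, 7277 CPM in suffix 2, 13000 CPM in suffix 3 and 13870 CPM in suffix 4, so suffix 1 was low against 3 high libraries. Its log2 ratio was -2.94 (-2.96 to -2.91), and it was found in 46.5% of thinned macrophages of suffix 1 (43.9 to 49.1) and 94.9% of suffix 2 (94.2 to 95.5). In Cd79a-positive cells the shares were 6.04% and 38.6%. Fabp5, an intracellular fatty acid carrier, stood at 96.2 CPM, 576 CPM, 451 CPM and 522 CPM in suffixes 1 to 4, a log2 ratio of -2.58 (-2.66 to -2.50).

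For 2 of the named lower genes it was suffix 2 that stood apart. Gpr141, an orphan receptor gene, stood at 2.27 CPM in suffix 1, 27.9 CPM in suffix 2, 2.39 CPM in suffix 3 and 3.28 CPM in suffix 4. Plac8, a gene of monocytes that B cells also carry, stood at 36.9 CPM, 207 CPM, 44.6 CPM and 10.7 CPM. Their log2 ratios of -3.59 and -2.49 thus set a high suffix 2 against a suffix 1 near one or both of the remaining libraries. Plac8 stood at 1745 and 2143 CPM in Cd79a-positive cells of suffixes 1 and 2.

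Genes of the cell cycle were low in suffix 1. Of 14 measured, 8 were at least 2-fold lower and none higher, with a median log2 ratio of -1.53, and under TMM scaling 11 were lower. The median depended on the setting. It was -0.45 with cells thinned to 3000 UMIs, -0.57 by the mean of single-cell CPM and -0.11 in cells of 6000 to 12000 UMIs. Without cells holding a UMI of Mki67, Top2a, Birc5, Cdk1 or Ccnb2 it was -0.02. Each median covers only the genes that reached 20 CPM in that setting. Stmn1, which regulates microtubules, stood at 7.72 CPM in suffix 1, 106 CPM in suffix 2, 70.6 CPM in suffix 3 and 48.7 CPM in suffix 4, a log2 ratio of -3.78 (-4.08 to -3.50). Pclaf, a partner of the replication clamp, stood at 1.97 CPM, 43.7 CPM, 25.6 CPM and 19.2 CPM in suffixes 1 to 4. Log2 ratios were -2.94 for the topoisomerase Top2a, -3.05 for the mitotic regulator Birc5, -3.28 for the replicative helicase subunit Mcm5 and -2.80 for the thymidylate synthase Tyms. Replication-dependent histone genes were low as well, at -4.26 for H1f5, -2.81 for H2ac8 and -2.75 for Hist1h2ap. H2ac8 and Hist1h2ap have near-identical copies, among which reads could be split.

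Few cells of either library held a cell cycle UMI. A UMI of Mki67, Top2a, Birc5, Cdk1 or Ccnb2 was found in 2.84% of thinned macrophages of suffix 1 (2.04 to 3.83) and 7.75% of suffix 2 (6.95 to 8.60), and in 6.86% and 16.2% before thinning. Suffixes 3 and 4 held 6.46% and 6.78% after thinning. In cells of 6000 to 12000 UMIs alone, the genes differed among themselves. Log2 ratios there were -4.52 for Pclaf, -2.84 for Birc5, -2.26 for Mcm5, -2.12 for Stmn1, -1.84 for the kinase partner Cks1b, -1.55 for Tyms and -1.13 for Top2a. They were -0.45 for H1f5 and 0.14 for Mki67, which stood at -1.90 in all cells. Birc5, Mcm5, Stmn1, Tyms, Top2a and Mki67 were below 20 CPM in both libraries in that range; the 4 genes of the list above it (Tubb5, Pcna, Mcm3 and Hmgb2) were within 2-fold there, as in all cells. With cells holding a UMI of Mki67, Top2a, Birc5, Cdk1 or Ccnb2 left out, Mcm5 stood at -2.24, Cks1b at -1.90, Pclaf at -1.46 and Stmn1 and Tyms at -1.39.

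Upstream sequence is shown for Top2a, Mcm5 and Birc5, all 3 low in suffix 1, with CCAAT and the cell cycle homology letters TTTGAA in capitals on either strand; matches of the 2 did not overlap here. CCAAT is in 34.3% and TTTGAA in 15.9% of the 250-base windows of all autosomal promoters. The stretch printed for Top2a lies at chr11:99024190-99024439 on the minus strand. Those for Mcm5 and Birc5 lie at chr8:75109259-75109508 and chr11:117848987-117849236, both on the plus strand.
Top2a: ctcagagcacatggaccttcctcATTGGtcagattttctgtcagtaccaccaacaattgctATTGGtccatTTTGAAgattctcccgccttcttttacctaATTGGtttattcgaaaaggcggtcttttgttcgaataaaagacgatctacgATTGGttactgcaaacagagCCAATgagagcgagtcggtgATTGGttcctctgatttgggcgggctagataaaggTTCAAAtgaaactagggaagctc
Mcm5: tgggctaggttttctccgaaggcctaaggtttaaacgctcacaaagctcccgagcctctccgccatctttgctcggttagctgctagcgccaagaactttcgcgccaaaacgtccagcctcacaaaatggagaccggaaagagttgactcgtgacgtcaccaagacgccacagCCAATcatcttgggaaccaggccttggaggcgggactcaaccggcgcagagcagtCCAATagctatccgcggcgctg
Birc5: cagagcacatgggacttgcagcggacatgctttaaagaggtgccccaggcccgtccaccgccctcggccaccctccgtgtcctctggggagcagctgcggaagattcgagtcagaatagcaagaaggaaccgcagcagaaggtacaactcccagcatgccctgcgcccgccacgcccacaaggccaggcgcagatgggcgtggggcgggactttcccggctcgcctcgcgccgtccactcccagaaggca
Top2a holds 6 matches of CCAAT and 2 of TTTGAA, Mcm5 holds 2 of CCAAT, and Birc5 holds neither in this window. Of the 29 genes named by rank, 23 had an entry in the table of promoters.

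Genes that define macrophages as a class were lower in part. All 15 lineage genes were measured, none was at least 2-fold higher in suffix 1, and 4 (5 with TMM scaling) were at least 2-fold lower, where 3.54% of all genes were: Cd68 at -1.03, Tyrobp at -1.06, Fcgr1 at -1.40 and Aif1 at -1.42. The growth factor receptor gene Csf1r stood at 927 CPM in suffix 1 and 587 CPM in suffix 2, and the complement gene C1qa at 4869 and 4259 CPM, so both libraries carried the class markers the label implies. Of 18 measured genes of large peritoneal macrophages, 4 were at least 2-fold higher and 1 lower, and under TMM scaling 2 and 3, so this list had no single direction. Its defining gene Gata6 stood at 55.1 CPM in suffix 1, 64.4 CPM in suffix 2, 128 CPM in suffix 3 and 134 CPM in suffix 4. A UMI of Timd4 or Gata6 was found in 22.2% of thinned macrophages of suffix 1 and 24.4% of suffix 2, against 2443 of 4288 cells and 3116 of 4971 cells in suffixes 3 and 4.

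The comparison was repeated in macrophages with a Timd4 or Gata6 UMI (540 cells of suffix 1 and 2203 of suffix 2) and in those without (991 and 2008). Lyve1 differed by 4.41 on the log2 scale in the former and 5.02 in the latter, Retnla by 2.43 and 3.64, Mrc1 by 2.27 and 2.66, Apoe by -5.08 and -4.83, and Slpi by -2.47 and -3.27. Each of these was past 2-fold in both sets of cells, and in none was the sign reversed. The plot of ratios in both sets shows the named genes in the same quadrants. Cells are sorted into these sets by detection, which depends on depth, so shallow cells of the large population fall among those without.

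**Figure D4:**
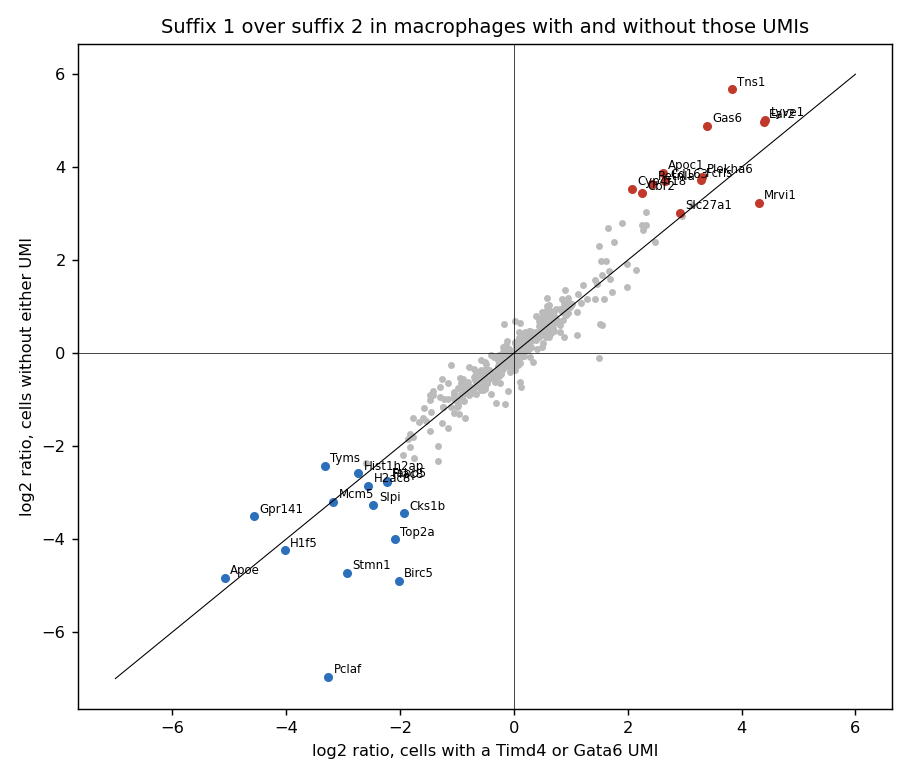
Log2 ratio of suffix 1 over suffix 2 in macrophages with a Timd4 or Gata6 UMI (x axis) and without either (y axis), 1 point a gene; red and blue points are the named higher and lower genes, grey points genes of the lists, and the line marks equal ratios. Mucl1, found in 4 cells, is not drawn; Lyve1 lies at 4.41 and 5.02 and Apoe at -5.08 and -4.83.

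Genes listed for small peritoneal and monocyte-derived macrophages split by gene. Of 8 measured, 6 were at least 2-fold higher (Retnla, Folr2, Mrc1, Ear2, the lectin Clec10a at 1.62 and the transcription factor Irf4 at 1.42) and Plac8 was lower; Retnla, Folr2 and Mrc1 also stand on other lists. Ccr2 had no stable direction. It stood at 185 CPM in suffix 1 and 119 CPM in suffix 2, a log2 ratio of 0.64, but at -0.63 in cells of 6000 to 12000 UMIs, and it was found in 14.9% of thinned macrophages of suffix 1 against 19.8% of suffix 2. The alternative activation list had 4 of 8 measured genes at least 2-fold higher (Retnla, Mrc1, Cd163 and Clec10a), while the chitinase-like gene Chil3 was lower at -1.07 and the arginase gene Arg1 stood at -0.44. Genes of this list therefore did not share 1 direction.

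MHC class II genes, which present antigen to T cells, were lower in suffix 1, and whether they passed 2-fold depended on the setting. The 7 measured genes ranged from -0.93 to -0.58 and none was past 2-fold. With TMM scaling 6 were, with cells thinned to 3000 UMIs 4, by the mean of single-cell CPM 5 and in cells of 6000 to 12000 UMIs 7. The list's median, -0.79, ranged from -1.44 in the last of these to -0.49 with a mitochondrial limit of 5%. H2-Aa stood at 1554 CPM in suffix 1, 2964 CPM in suffix 2, 528 CPM in suffix 3 and 1134 CPM in suffix 4, so suffix 1 lay between the other libraries and suffix 2 was the highest. Among 15 class I genes the immunoproteasome subunits Psmb8, Psmb9 and Psmb10 were at least 2-fold lower, at -1.73, -1.17 and -1.11, and none was higher. Of 40 measured genes named as proteasome subunits, 16 were at least 2-fold lower and none higher, where 3.54% and 7.94% of all genes were. Of 9 measured genes induced by interferon-gamma, most of them GTPase genes, Iigp1 at -1.88 and Zbp1, which encodes no GTPase, at -1.58 were lower. None of 10 type I interferon genes passed 2-fold. With TMM scaling 5 and 2 were lower in these lists, where 602 of 5942 genes were.

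Receptors for antibodies differed in opposite directions. Of 11 measured Fc receptor and signalling genes, 4 were at least 2-fold higher and 2 lower, where 7.94% and 3.54% of all genes were. The inhibitory receptor Fcgr2b stood at 449 CPM in suffix 1, 154 CPM in suffix 2, 185 CPM in suffix 3 and 148 CPM in suffix 4, a log2 ratio of 1.55. Fcgrt, the receptor that recycles antibody, had a ratio of 1.83 and Fcrls of 3.998. The activating receptors Fcgr1 and Fcgr4 were lower, at -1.40 and -1.16. The phosphatase gene Inpp5d stood at 1.05, and under TMM scaling it was no longer past 2-fold.

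Iron and complement genes held a few of the larger differences. Of 11 measured genes of iron and haem handling, the transferrin receptor Tfrc (2.33), the ferroxidase Cp (2.46) and Cd163 were at least 2-fold higher, and haptoglobin, Hp, was lower at -1.41. Of 11 complement genes, Fcna and C4b (1.20) were higher and none lower. The counts of both lists stand beside 7.94% higher and 3.54% lower over all genes. With TMM scaling, of the complement genes only Fcna was higher and C1qb was lower. Among 23 genes of matrix, collagen VI and its receptors, 4 were measured, the gelatinase Mmp9 was higher at 2.70, and the collagen VI genes Col6a1, Col6a2 and Col6a3 had no UMI in suffix 1.

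Genes of protein synthesis and of respiration were lower as groups. Of 23 listed ribosomal protein genes 3 were at least 2-fold lower and none higher, with a median of -0.58, and of 22 nuclear genes of oxidative phosphorylation 4 were lower and none higher, with a median of -0.64. Over all genes, 3.54% were lower. With TMM scaling 11 and 12 were lower, where 602 of 5942 genes were. The 12 mitochondrially encoded genes had a median of 0.36, close to that of all genes, and none passed 2-fold. Of 20 lysosome genes, Ctsb (1.07), Psap and Atp6v1b2 were higher, where 7.94% of all genes were, and none passed 2-fold under TMM scaling. Median mitochondrial UMIs were 5.16% of a cell's total in suffix 1 and 3.63% in suffix 2, and their part in these differences was not tested. The plot of the lists shows these medians beside the median of all genes.

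**Figure D5:**
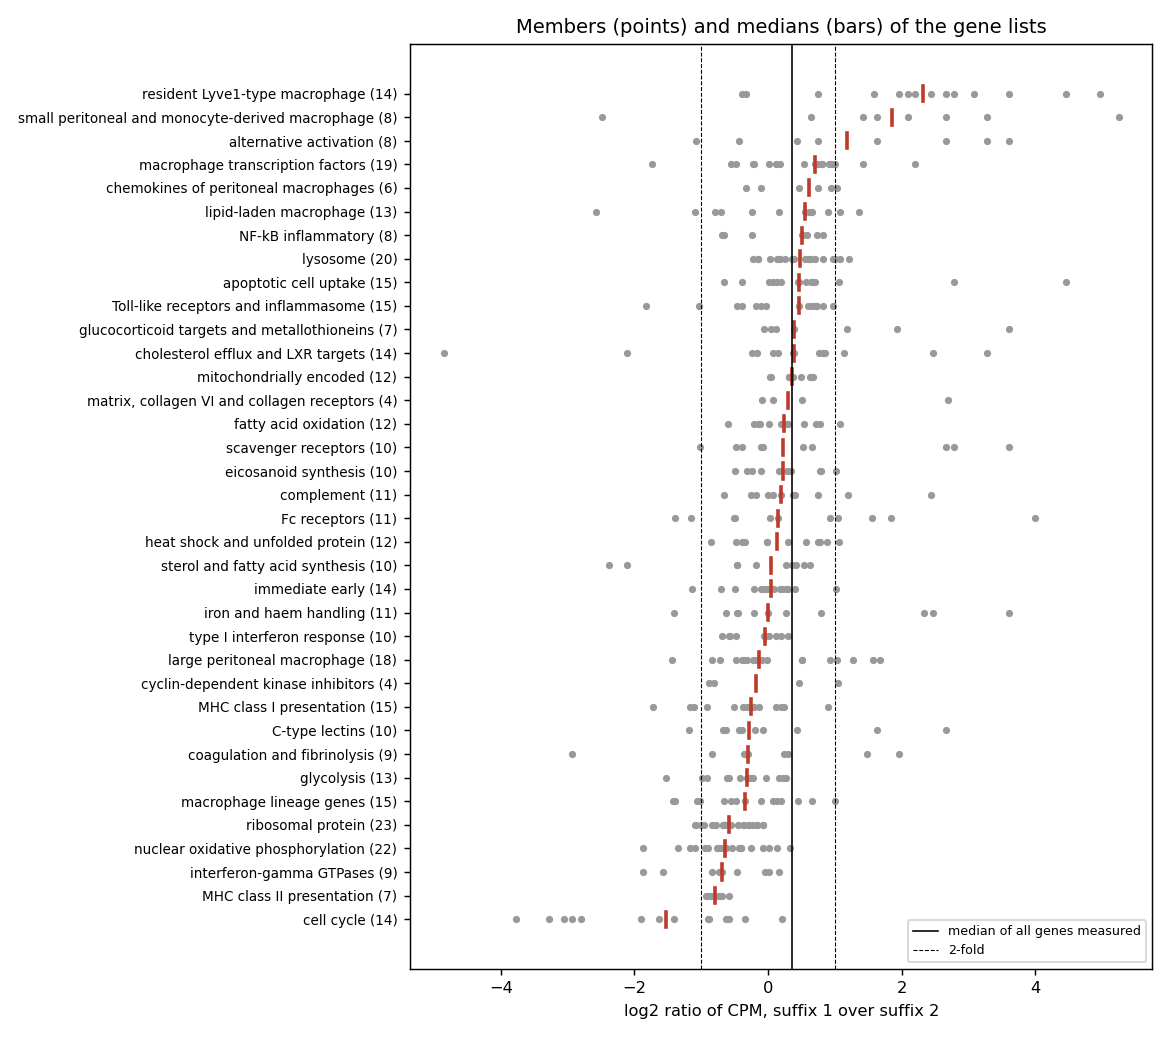
Log2 ratio of suffix 1 over suffix 2 for members of each gene list that reached 20 CPM (grey points; number in brackets) and the list's median (red bar), ordered by median; the solid line is the median of all genes, 0.35, and the dashed lines mark 2-fold. Medians run from 2.31 for resident Lyve1-type genes to -1.53 for the cell cycle, which stood at -0.45 with cells thinned to 3000 UMIs.

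Markers of other cell types also differed between the libraries. The 11 B cell markers, which exclude Cd79a, summed to 259 CPM in macrophages of suffix 1 and 59.4 CPM in suffix 2, and to 47.8 and 50.5 CPM in suffixes 3 and 4. A UMI of Cd79b, Ms4a1, Ighm or Igkc was found in 44.7% of thinned macrophages of suffix 1 and 8.25% of suffix 2. Ighm stood at 87.3 CPM in suffix 1 macrophages, 0.957% of its level in Cd79a-positive cells of the same library. The 9 mast cell markers summed to 70.0 against 6.39 CPM, the 12 T and NK cell markers to 12.8 against 1.95 CPM and the 9 dendritic cell markers to 24.3 against 3.04 CPM. The 13 mesothelial and stromal markers summed to 0.606 against 0.290 CPM, with 8 of them at 0 in suffix 1. In the 362 and 2918 macrophages without a UMI of those 4 B cell genes, Lyve1 differed by 5.16, Retnla by 3.40, Mrc1 by 2.78, Apoe by -4.72 and Slpi by -2.89 on the log2 scale. In these cells the resident list again had 11 of 14 measured genes at least 2-fold higher. Their median depth was 6841.5 UMIs in suffix 1 and 12124.5 in suffix 2. A cell without a UMI of those genes can still hold RNA of other cells, more so when shallow. The part of RNA from other cell types in the differences was not tested.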

How the data were processed

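The authors deposited 1 table of UMI counts, 31253 genes by 26811 barcodes; its header records Cell Ranger 5.0.1. CASAVA 1.8, Seurat and the mm10 build stand in the submitters' processing notes. All 4 samples share the table, and 0 of its measured columns carried a sample name. Members, gene lists and rules were chosen with earlier results of these data known. UMIs were summed over the macrophages of each suffix and scaled to CPM. Log2 ratios used a prior count of 0.5; intervals are exact and cover counting error at 95% confidence. Genes on X and Y and Adgre1, Cd79a and the Cd3 genes were left out, and 20 CPM in the higher library was required. The 12 mitochondrially encoded genes, whose share the rule limits, were kept among the genes measured. Named genes were the 15 highest and 15 lowest by the interval bound nearer 0, leaving out predicted models and receptor genes, plus list members reaching 20 CPM and Apoe, Lyve1, Retnla and Mrc1. Of these genes, 1 of the 15 highest and 1 other list member are not reported here, and the lists were summarised without them. Tools were Python 3.11.15, scipy 1.17.1 and edgeR 4.0.16 for TMM factors. No doublet caller was run. The ratio, interval and thinning steps were tested on simulated data. Promoters came from RefSeq.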

Additional observations from a re-analysis of the deposited data

Results flagged for a closer look

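Sex-linked RNA lies outside the comparison and differed between the libraries by presence and absence. Xist stood at 572.8 CPM in the macrophages of suffix 1 (7564 UMIs) and was found in 1347 of 1531 cells, 88.0% of them, while suffixes 2, 3 and 4 held 1, 0 and 3 UMIs. The summed level of Ddx3y, Eif2s3y, Kdm5d and Uty was 150.3 CPM in the macrophages of suffix 2, where 80.9% of cells held a UMI of at least 1 of them, and 0 UMIs in suffix 1, which allows up to 0.227 CPM. Suffixes 3 and 4 held 129 and 130 CPM. These values came to attention because the genes are not used in any comparison above.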

How the results depend on the processing

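Of 20 alternatives to the count of 480 higher and 214 lower genes, 16 were fixed with the design and 4 were chosen after seeing the data. The counts moved by over 1.5 times under these: TMM scaling gave 121 higher and 602 lower, centring on the median 149 and 546, a minimum of 5 CPM 803 and 383, of 50 CPM 267 and 134, and of 20 CPM in both libraries 268 and 138; among the added ones, cells of 6000 to 12000 UMIs gave 286 and 135, and thinning with centring 157 and 514. A minimum level changes how many genes are measured, so its cause is in its construction. TMM scaling and centring lower every log2 ratio by the same amount, so fewer higher and more lower genes follow from their construction. Why the median of all genes lay above 0 was not tested. For the range of 6000 to 12000 UMIs the cause was not tested either. In the 6000 to 12000 UMI range the log2 ratio of Mki67 reversed to 0.14. The log2 ratios of Lyve1, Retnla, Mrc1, Apoe and Slpi ranged over all 20 alternatives from 4.41 to 5.16, 2.43 to 3.64, 2.16 to 2.79, -5.25 to -4.72 and -3.30 to -2.47. Shares of cells with a UMI, suffix 1 against suffix 2, were 33.9 against 1.65% for Lyve1, 87.7 against 21.5% for Retnla, 50.3 against 12.8% for Mrc1, 10.0 against 9.67% for Timd4, 12.1 against 1.67% for Cd163, 5.44 against 73.1% for Apoe with cells thinned to 2000 UMIs. At 5000 UMIs they were 41.9 against 2.79% for Lyve1, 94.5 against 29.0% for Retnla, 75.04 against 23.2% for Mrc1, 13.9 against 14.8% for Timd4, 16.7 against 3.54% for Cd163, 12.1 against 89.9% for Apoe. Shares outside the interval at 3000 UMIs were, with at least 4 Adgre1 UMIs, in suffix 1 Lyve1 34.5%, Retnla 89.6%, Mrc1 56.8%, Timd4 13.8%, Cd163 12.3%, Apoe 6.33% and in suffix 2 Timd4 14.1%, and with a mitochondrial limit of 5%, in suffix 1 Lyve1 34.1%, Mrc1 59.6% and in suffix 2 Mrc1 15.1%, Timd4 9.64%, Cd163 2.04%, Apoe 82.9%. A share rises with the thinned depth by construction; for the other settings the cause was not tested. Under each of these and a second draw the libraries kept their order for Lyve1, Retnla, Mrc1, Cd163 and Apoe, while for Timd4 the order was not the same throughout. No paired analysis was possible because each side is 1 library, no column names a sample, and no test was run; no library could be left out for the same reason. In suffix 1, with 13205915 UMIs, 3 UMIs are 0.227 CPM, and levels at or below that are not told from 0 at this depth.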

Other observations

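Several gene groups outside the account above differed gene by gene. Of 19 measured transcription factors of macrophages, Maf (2.20 on the log2 scale) and Irf4 (1.42) were at least 2-fold higher in suffix 1 and Id2 (-1.74) at least 2-fold lower. These counts lie near the shares over all genes, 7.94% and 3.54%. Of 15 Toll-like receptor and inflammasome genes, the adaptor Pycard stood at 281 CPM in suffix 1, 1000 CPM in suffix 2, 1089 CPM in suffix 3 and 799.6 CPM in suffix 4, and it and the protease gene Casp1 were the members at least 2-fold lower (-1.83 and -1.03). None of 8 measured NF-kB inflammatory genes passed 2-fold, but with TMM scaling 2 were lower (Nfkbia and Cxcl2), where 602 of 5942 genes were. Of 15 genes of apoptotic cell uptake, Gas6, Stab1 and the receptor Axl (1.06) were higher and none lower; with TMM scaling Axl was not past 2-fold and C1qb was lower. Of 13 genes of lipid-laden macrophages, Cd63 (1.36) and Ctsb (1.07) were higher and Fabp5 and Lgals3 (-1.09) lower, where 7.94% and 3.54% of all genes were. With TMM scaling none of the 13 was higher and 4 were lower (Cd9, Fabp4, Fabp5 and Lgals3). The thrombin receptor cofactor Thbd stood at 68.8 CPM against 24.6 CPM.

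Of 7 measured glucocorticoid-responsive and metallothionein genes, Fkbp5, Zbtb16 and Cd163 were at least 2-fold higher in suffix 1 and none lower. Over all genes, 7.94% were higher and 3.54% lower. With TMM scaling Fkbp5 stood at 0.81 and was not past 2-fold, while Zbtb16 stood at 1.56 and Cd163 at 3.23. Per1, Sgk1, Mt1 and Klf9 lay between -0.06 and 0.39 on the log2 scale. Cd163 was high in suffix 1 alone, as Lyve1 was, while Fkbp5 and Zbtb16 were not. Fkbp5 stood at 117 CPM in suffix 1, 51.8 CPM in suffix 2, 109 CPM in suffix 3 and 11.0 CPM in suffix 4, and Zbtb16 at 44.5 CPM, 11.7 CPM, 32.3 CPM and 12.7 CPM, so suffix 3 lay near suffix 1 for both. Of 7 measured S100 genes, which encode calcium-binding proteins, 4 were at least 2-fold lower in suffix 1 and none higher, where 3.54% and 7.94% of all genes were.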
